A study of Mus musculus with 12 samples.

Results

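Secreted Wnt inhibitors are proteins released by a cell that keep Wnt ligands from signaling, and 10 of their genes, including Sost, which encodes sclerostin, were followed through Sox17-Erg reprogramming of mouse cardiac fibroblasts. The 10 genes, Sost, Sostdc1, Dkk2, Dkk3, Sfrp1, Sfrp2, Sfrp4, Sfrp5, Frzb and Wif1, were found by symbol among the 35727 Ensembl genes of the count table. They were chosen on measured values, namely how they differed between Sox17-Erg and control cultures in these same libraries, so those differences are given as a description with no p-value, and nothing is read from counts of calls among them. All 10 were listed in the table, and 8 passed the filter on low counts, with Sfrp5 and Wif1 left out. Sost and Sostdc1 passed it only because of their counts in the Sox17-Erg cultures.

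The study converts fibroblasts into endothelial-like cells with retroviruses that carry Sox17, a SOX transcription factor, and Erg, an ETS transcription factor. Bulk RNA was sequenced from Sox17-Erg (SE) and control cultures 3 days, 7 days and 4 weeks after retroviral infection, with 2 libraries in each of the 6 groups. The control libraries are labelled as fibroblasts, and their table columns carry the name of the pMX retroviral backbone. All 12 libraries share heart as the source tissue, EGM2 endothelial growth medium and a stranded mRNA kit, and in the study's methods the starting cells were fibroblasts from pooled hearts of newborn mice. The labels give no genotype or strain. The study's methods name C57BL/6J mice, and a cross of Tcf21-CreERT2 with Rosa26-tdTomato, as sources of its cells, without saying which one gave these libraries. Nothing states that the 2 libraries of a group came from separate cultures, so p-values measure the spread between these libraries, which may be technical.

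Library totals ranged from 19011635 to 41240449 estimated counts. Sox17 had 0 to 9 counts in the 6 control libraries and 10019 to 36238 in the 6 SE libraries, and Erg had 2 to 49 against 389 to 1842, so both followed the labels. Whether they count the viral or the native transcript was not tested. The 5 endothelial markers (Pecam1, Cdh5, Kdr, Tie1, Emcn) summed to 8.87 to 46.0 CPM (counts scaled to a common library size) in control and 292 to 690 CPM in SE libraries. The 6 fibroblast markers summed to 24579 to 29673 CPM in control and 19182 to 30863 CPM in SE libraries at Day 3, where the arms overlapped. At Day 7 the sum was higher in SE, at 18629 to 22904 against 24819 to 25703 CPM. It was lower in SE at Week 4, at 11758 to 13088 against 8479 to 9543 CPM, most of it Col1a1 and Col1a2. None of the 6 was at 0 in any group. At that time Dcn was at 2601 ± 356 against 263 ± 54.4 CPM, Pdgfra at 1633 ± 33.7 against 333 ± 3.72 CPM and Tcf21 at 452 ± 128 against 102 ± 22.5 CPM (SD, n = 2). These 3 were named after their values were seen and do not stand for Col1a1, Col1a2 and Thy1, the rest of the list. Of the 6, 1, 2 and 3 were lower in SE cultures at the 3 time points and 0 higher (edgeR).

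Wnt ligands signal by bringing a Frizzled receptor together with the co-receptors Lrp5 or Lrp6, which stabilizes beta-catenin, a partner of TCF factors in the nucleus. Secreted inhibitors act at the cell surface in different ways. Sclerostin, Sostdc1 and Dkk2 bind the Lrp co-receptors, sclerostin with the help of Lrp4, whereas the secreted Frizzled-related proteins (Sfrp1, Sfrp2, Sfrp4, Sfrp5 and Frzb) and Wif1 bind Wnt ligands themselves. Dkk3 is the divergent member of the Dickkopf family and is not known as a classical Lrp6 antagonist. Sost is best known as a product of osteocytes in bone, and Wnt signaling takes part in fibroblast activation and in vessel formation.

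The co-receptor binders Sost, Sostdc1 and Dkk2 stood above control in SE cultures whenever they were measured, and their SE levels were higher at Week 4 than at Day 3. Sfrp1 and Dkk3 had the larger levels per kilobase in late control cultures and were lower in SE cultures at every time point. The arms of Sfrp2, Sfrp4 and Frzb overlapped until Week 4, when Sfrp2 and Sfrp4 lay above control and Frzb below, and Sfrp5 and Wif1 were close to absent.

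The promoters of Sost and Dkk2 are shown because Sox17 and Erg are DNA-binding factors and these are the inhibitors that stood above control whenever measured and have an entry in the RefSeq promoter table. Each line holds the 250 bases before the start of the gene, 5′ to 3′ on the gene's strand (GRCm38.p6). The Sost window is chr11:101967016-101967265 on the minus strand and the Dkk2 window is chr3:132085042-132085291 on the plus strand. Capitals mark a match, on either strand, to the SOX core ACAAT, the ETS core GGAAGT, the TCF core CTTTGA or the TATA box TATAAA.
Sost: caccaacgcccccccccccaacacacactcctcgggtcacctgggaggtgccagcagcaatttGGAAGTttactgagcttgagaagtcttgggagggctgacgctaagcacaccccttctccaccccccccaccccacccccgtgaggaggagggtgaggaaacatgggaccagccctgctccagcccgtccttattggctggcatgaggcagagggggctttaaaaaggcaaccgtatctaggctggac
Dkk2: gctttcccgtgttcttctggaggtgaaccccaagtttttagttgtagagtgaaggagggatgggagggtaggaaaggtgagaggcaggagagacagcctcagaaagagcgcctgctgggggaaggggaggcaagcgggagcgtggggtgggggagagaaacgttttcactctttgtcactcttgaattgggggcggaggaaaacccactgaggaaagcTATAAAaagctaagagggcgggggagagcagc

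The Sost window holds 1 ETS core, which begins 187 bases before the start, and the Dkk2 window holds 1 TATA box, 32 bases before it. Of the 6 members with an entry (Sost, Dkk2, Sfrp2, Sfrp5, Frzb, Wif1), none has the SOX core, which occurs in 27.7% of 32817 promoter windows of this length. The ETS core occurs in 1 of the 6 and in 19.7% of all windows, and the TCF core in 1 of the 6 (Frzb) and in 13.8% of all. The TATA box occurs in 2 of the 6 and in 12.4% of all windows. A match is a description of the letters and not a binding site. Only these exact words were searched, so a window without a match may still hold another form of a site. Sostdc1, Dkk3, Sfrp1 and Sfrp4 have no entry.

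Sost (ENSMUSG00000001494, chr11:101962458-101967015, minus strand, GRCm38) had 0 counts in each of the 6 control libraries. A count of 0 allows up to 3 counts, which is 0.0751 to 0.139 CPM at these depths. In SE libraries Sost held 5.72 and 3.06 CPM on Day 3, 37.0 and 32.4 CPM on Day 7 and 16.7 and 36.2 CPM in Week 4. No SE library came near the control floor, and the 2 Week 4 libraries differed more from each other than the 2 Day 7 libraries did. Against a floor of 3 counts per control library, mean Sost was at least 35.4-fold higher in SE cultures on Day 3, at least 294-fold on Day 7 and at least 269-fold in Week 4. These bounds were 24.7-fold without SE Day 3 replicate 1, 275-fold without SE Day 7 replicate 1 and 169-fold without SE Week 4 replicate 2.

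The SE libraries compared over time also took part in the choice of Sost, which passed the filter on low counts only through its SE counts. The test is therefore given as a description. The SE libraries of Day 3 and of Week 4 each had more than the minimum of 10 counts. Within SE cultures Sost rose from Day 3 to Week 4 by 2.60 on the log2 scale (fitted standard error 0.46, n = 2 against 2; adjusted p = 0.0090, edgeR quasi-likelihood test). The call held in each of 16 other settings, with a highest adjusted p of 0.0461. It was 1.93 without SE Week 4 replicate 2. The Day 7 range (32.4 to 37.0 CPM) and the Week 4 range (16.7 to 36.2 CPM) overlap, so no order is given between them.

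Sostdc1 (chr12:36314139-36318452, plus strand) encodes a relative of sclerostin that also binds bone morphogenetic proteins. It had 0 to 6 counts in every control library, at most 0.154 CPM. In SE libraries it held 5.41 and 0.603 CPM on Day 3, 11.5 and 2.94 CPM on Day 7 and 26.5 and 30.0 CPM in Week 4. Replicate 1 held the larger value at Day 3 and Day 7, and the Week 4 libraries were close. Relative to control the fitted log2 fold change was 5.13 ± 1.34, then 5.90 ± 1.22 and in Week 4 7.80 ± 1.20. The Day 3 value was 2.80 without SE Day 3 replicate 1, 9.31 without control Day 3 replicate 1 and 4.28 without control Day 3 replicate 2. The Day 7 value was 4.59 without SE Day 7 replicate 1 and 6.51 without SE Day 7 replicate 2.

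Sostdc1 rose in SE cultures from Day 3 to Week 4 by 3.25 ± 0.89 on the log2 scale (adjusted p = 0.0228, edgeR). These libraries also took part in its choice, and it passed the filter only through its SE counts, so the test is given as a description. The value was 5.59 without SE Day 3 replicate 1. The call was lost without SE Day 3 replicate 2 (2.38, adjusted p = 0.0689), without SE Week 4 replicate 1 (3.38, 0.0692) and without SE Week 4 replicate 2 (3.15, 0.0711).

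Dkk2 (chr3:132085292-132180304, plus strand) encodes a Dickkopf protein that binds Lrp6. Control libraries held 1.75 and 3.61 CPM at Day 3, 2.80 and 2.73 CPM at Day 7 and 1.85 and 0.366 CPM at Week 4. SE libraries held 4.25 and 5.21 CPM at Day 3, 11.6 and 9.79 CPM at Day 7 and 19.7 and 16.0 CPM at Week 4. The arms did not overlap at any time point, and the gap was narrowest at Day 3. Relative to control the fitted log2 fold change was 0.83 ± 0.54, then 1.95 ± 0.53 and in Week 4 3.93 ± 0.58. The Week 4 value was 5.59 without control Week 4 replicate 1 and 3.28 without control Week 4 replicate 2.

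In SE cultures Dkk2 rose from Day 3 to Week 4 by 1.91 ± 0.52 on the log2 scale (adjusted p = 0.0228, edgeR). Leaving out any 1 of the 4 libraries compared ended the call: the adjusted p was 0.117 without SE Day 3 replicate 1, 0.0815 without SE Day 3 replicate 2, 0.0947 without SE Week 4 replicate 1 and 0.0543 without SE Week 4 replicate 2. In control cultures the difference of Dkk2 over time was −1.19 ± 0.56 (adjusted p = 0.15). It passed the threshold in 2 of 16 other settings, with no filter on low counts (−1.16, adjusted p = 0.0203) and without control Week 4 replicate 1 (−2.84, 0.0145), and was −0.51 without control Week 4 replicate 2. The adjusted p over these settings ran from 0.0145 to 0.574 (edgeR and DESeq2).

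**Figure D1:**
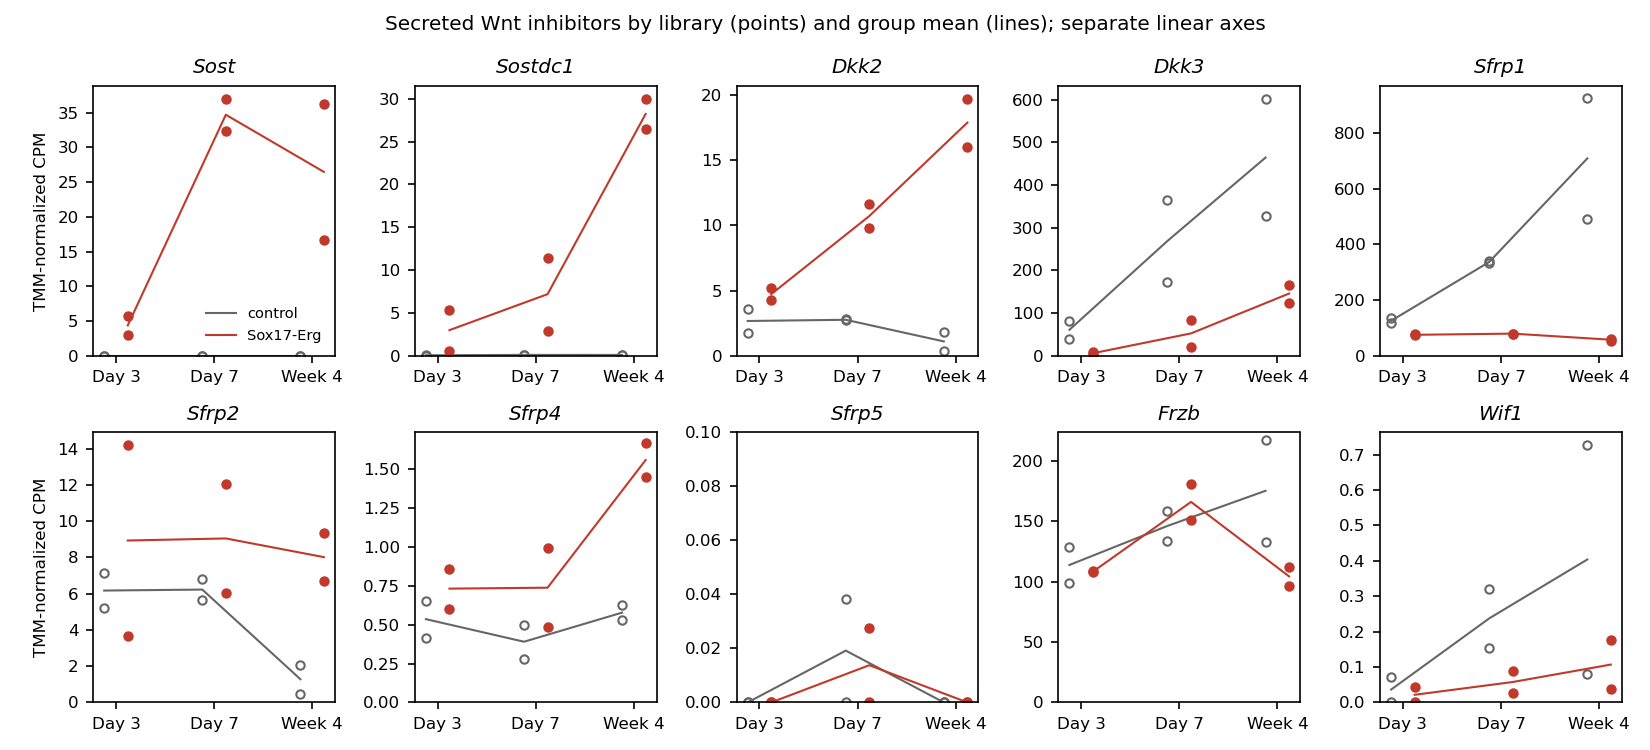
TMM-normalized CPM of the 10 inhibitors (vertical axes, linear, separate for each gene) at the 3 time points (horizontal axes), with open gray points for the control libraries, filled red points for the SE libraries and lines through the group means (n = 2 a group). Sost is at 0 in all 6 control libraries, Sfrp1 reaches 492 and 925 CPM in control at Week 4 while every SE library stays at 55.3 to 80.4 CPM, and Sfrp5 never exceeds 1 count.

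Sfrp1 (chr8:23411502-23449632, plus strand) encodes a Frizzled-related protein that binds Wnt ligands. Control libraries held 136 and 116 CPM at Day 3, 334 and 340 CPM at Day 7 and 925 and 492 CPM at Week 4. SE libraries held 77.8 and 73.6 CPM at Day 3, 80.4 and 79.6 CPM at Day 7 and 60.8 and 55.3 CPM at Week 4. The arms did not overlap at any time point, and the distance between them widened while the SE values stayed in a narrow range. Relative to control the fitted log2 fold change of Sfrp1 was −0.74 ± 0.24, then −2.07 ± 0.25 and in Week 4 −3.61 ± 0.26. In a bulk sample, fewer cells that make a transcript and less transcript per cell cannot be told apart.

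Over time Sfrp1 rose in control cultures by 2.49 ± 0.25 on the log2 scale from Day 3 to Week 4 (adjusted p = 0.00049, edgeR), a call that held in each of 16 other settings. In SE cultures the same difference was −0.38 ± 0.24 (adjusted p = 0.260). It passed the threshold in 1 other setting, without control Week 4 replicate 1 (−0.38, adjusted p = 0.0417), and its adjusted p reached 0.565 in the others.

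Dkk3 (chr7:112116017-112159057, minus strand) was, like Sfrp1, lower in SE cultures at each time point. Control libraries held 40.1 and 82.1 CPM at Day 3, 174 and 365 CPM at Day 7 and 602 and 327 CPM at Week 4. SE libraries held 3.90 and 8.61 CPM at Day 3, 20.2 and 85.2 CPM at Day 7 and 167 and 125 CPM at Week 4. The arms did not overlap at any time point, although the libraries within a group differed up to several-fold. Relative to control the log2 fold change was −3.28 ± 0.75, then −2.36 ± 0.70 and in Week 4 −1.67 ± 0.68. The Day 3 value was −2.71 without control Day 3 replicate 2 and −3.97 without SE Day 3 replicate 2. The Day 7 value was −1.73 without control Day 7 replicate 2, −1.66 without SE Day 7 replicate 1 and −3.77 without SE Day 7 replicate 2.

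Dkk3 rose over time in both arms. From Day 3 to Week 4 it rose by 2.93 ± 0.71 in control (adjusted p = 0.0169) and by 4.53 ± 0.79 in SE cultures (adjusted p = 0.0038, edgeR). The control call was lost without control Day 3 replicate 1 (2.50, adjusted p = 0.119), without control Day 3 replicate 2 (3.52, 0.0537) and without control Week 4 replicate 1 (2.42, 0.0844). The SE call held in each of 16 other settings, with a value of 5.23 without SE Day 3 replicate 2.

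Frzb (chr2:80411970-80447625, minus strand), also known as Sfrp3, was expressed at a like level in both arms until Week 4. Control libraries held 98.6 and 129 CPM at Day 3, 133 and 159 CPM at Day 7 and 133 and 217 CPM at Week 4. SE libraries held 109 and 108 CPM at Day 3, 151 and 181 CPM at Day 7 and 96.4 and 112 CPM at Week 4. The arms overlapped at Day 3 and Day 7 and stood apart at Week 4, where the log2 fold change was −0.75 ± 0.23 and became −0.34 without control Week 4 replicate 2. From Day 3 to Week 4 the difference was 0.62 ± 0.23 in control (adjusted p = 0.0740) and −0.05 ± 0.23 in SE cultures (adjusted p = 0.885, edgeR). The control difference passed the threshold with DESeq2 (adjusted p = 0.0368), with no filter on low counts (0.00939), with the replicate number as a block (0.0232) and without control Week 4 replicate 1 (0.94, 0.0231), and its adjusted p reached 0.461 in the other settings.

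Sfrp2 (chr3:83766321-83774316, plus strand), another ligand-binding inhibitor, differed between the arms mainly at the last time point. Control libraries held 7.13 and 5.22 CPM at Day 3, 6.79 and 5.66 CPM at Day 7 and 2.08 and 0.488 CPM at Week 4, and SE libraries held 14.2 and 3.66, 12 and 6.06, and 9.34 and 6.70 CPM. The arms overlapped at Day 3 and Day 7, and at Week 4 the log2 fold change was 2.58 ± 0.73, with the control values lower than at the earlier time points. That value was 4.03 without control Week 4 replicate 1 and 1.96 without control Week 4 replicate 2. From Day 3 to Week 4 the control difference was −2.21 ± 0.72 (adjusted p = 0.0505) and the SE difference −0.15 ± 0.66 (adjusted p = 0.888, edgeR). The control difference passed the threshold in 6 of 16 other settings, among them DESeq2 (adjusted p = 0.0058), the replicate block (0.0083) and the fit without control Week 4 replicate 1 (−3.65, 0.0449). It was −1.56 without control Week 4 replicate 2 (adjusted p = 0.186), the highest adjusted p of the 16. Sfrp2 overlaps an antisense gene, Gm26771. The kit is stranded, but whether the counting used strand is not given in the sources used here.

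The other members were low. Sfrp4 (chr13:19623104-19632994) had 7 to 45 counts in every library, 0.281 to 0.655 CPM in control and 0.483 to 1.67 CPM in SE libraries. Its arms overlapped at Day 3 and Day 7 and not at Week 4, where the log2 fold change was 1.42 ± 0.48. Wif1 (chr10:121033960-121100650) had at most 29 counts, in control Week 4 replicate 1, against 2 in replicate 2 of that group and at most 5 in any SE library. Sfrp5 (chr19:42197971-42202252) had 1 count in 1 control and in 1 SE library, both at Day 7, and 0 in the other 10.

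Of the 8 members that passed the filter, 2 were called higher in SE at Day 3 (Sost and Sostdc1) and 1 lower (Dkk3) at an adjusted p under 0.05, where 7.19% of all 15506 genes tested were called higher and 5.13% lower. At Day 7 Dkk2 joined the higher genes (3) and Sfrp1 the lower ones (2), beside 9.48% higher and 7.93% lower of all genes. At Week 4 the higher members were Sost, Sostdc1, Dkk2 and Sfrp2 (4) and the lower ones Sfrp1 and Frzb (2), beside 11.9% higher and 11% lower of all genes. Nothing is read from these counts, since the same differences chose the members. With the replicate number as a block within each time point, Sfrp1 was also called lower at Day 3, and Dkk3 lower and Sfrp4 higher at Week 4, which makes 2 lower members at Day 3 and 5 higher and 3 lower at Week 4. Calls were also lost: of 18 other settings, Sostdc1 at Day 3 was called in 8, Dkk3 at Day 3 in 14, Sostdc1 at Day 7 in 15, Dkk2 at Day 7 in 10, Dkk3 at Day 7 in 7, Sfrp2 at Week 4 in 15 and Frzb at Week 4 in 6. That leaves 1 of 3 calls at Day 3, 2 of 5 at Day 7 and 4 of 6 at Week 4 made in every setting, from which nothing is read either.

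From Day 3 to Week 4, 2 of the 8 members tested rose in control (Sfrp1 and Dkk3) and 0 fell at an adjusted p under 0.05, where 13.9% of all genes rose and 12.6% fell (edgeR). At an unadjusted p under 0.05 in edgeR 1 was lower (Sfrp2), and by DESeq2 1 fell. In SE cultures 4 of the 8 rose (Sost, Sostdc1, Dkk2 and Dkk3) and 0 fell, where 15.1% of all genes rose and 15.6% fell. There, 0 members were lower at an unadjusted p under 0.05 in edgeR and 0 by DESeq2. The libraries compared over time also entered the differences that chose the members, and Sost and Sostdc1 were among those tested only through their SE counts, so nothing is read from these counts either.

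**Figure D2:**
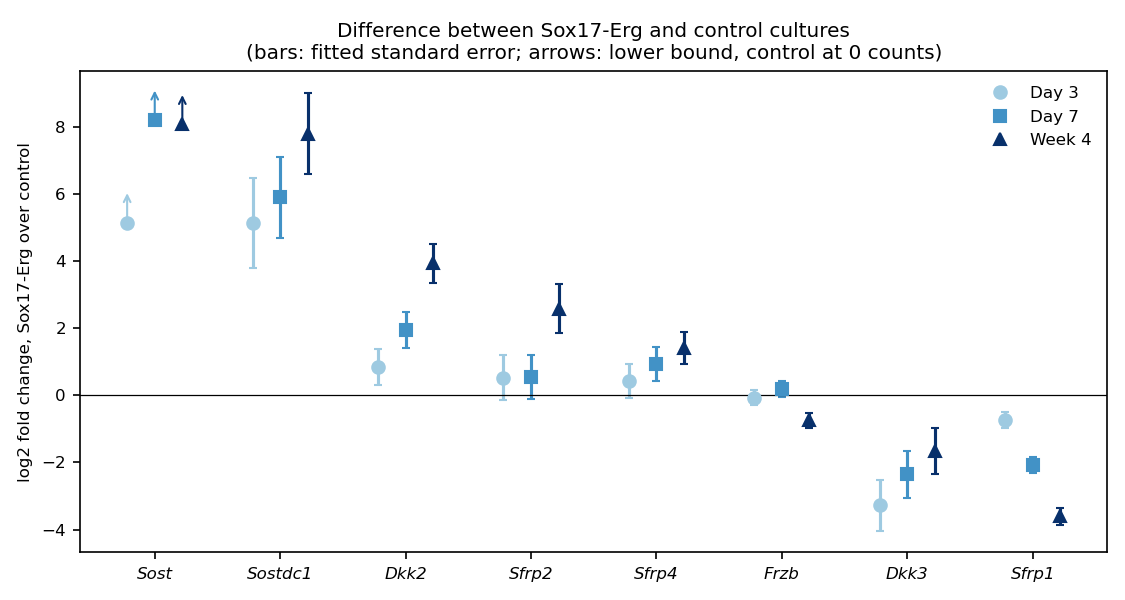
Log2 fold change of SE over control (vertical axis) for the 8 members tested (horizontal axis) at the 3 time points, with fitted standard errors as bars and, for Sost, a lower bound with an arrow because its control libraries are at 0 counts. Sfrp1 goes from −0.74 at Day 3 to −3.61 at Week 4, whereas Dkk3 goes from −3.28 to −1.67.

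Levels were next set side by side per kilobase of exon, since longer genes gather more reads. In control cultures at Week 4 Sfrp1 stood first with 212 and 113 CPM per kilobase, ahead of Dkk3 with 179 and 97.3, and the ranges of the 2 genes overlap. Frzb followed with 41.1 and 67.2 CPM per kilobase, below both. In SE cultures at Week 4 the order was another: Dkk3 had 49.7 and 37.2, Frzb 29.8 and 34.7, Sostdc1 14.9 and 16.8, Sfrp1 13.9 and 12.6, and Sost 8.08 and 17.5 CPM per kilobase. The ranges of Sostdc1 and Sost overlap, as do those of Sfrp1 and Sost, whereas Dkk3 lay above Frzb and Frzb above the other 3 in both libraries.

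Summed over the 10 genes, the level per kilobase was 77.5 and 94.4 in control and 66.3 and 57.8 in SE libraries at Day 3. At Day 7 it was 174 and 239 against 104 and 122, and at Week 4 it was 434 and 277 against 126 and 127. The arms did not overlap at any time point, and the control sum at Week 4 was mostly Sfrp1 and Dkk3. Sost made up 2.56 to 4.17% of the SE sum on Day 3, 12.8 to 17.1% on Day 7 and 6.39 to 13.8% in Week 4, and 0% of the control sum. Sostdc1 reached 11.8 to 13.3% of the sum in SE libraries at Week 4. Sfrp1 took 40.6 to 48.8% of the control sum and 9.98 to 11% of the SE sum at that time.

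**Figure D3:**
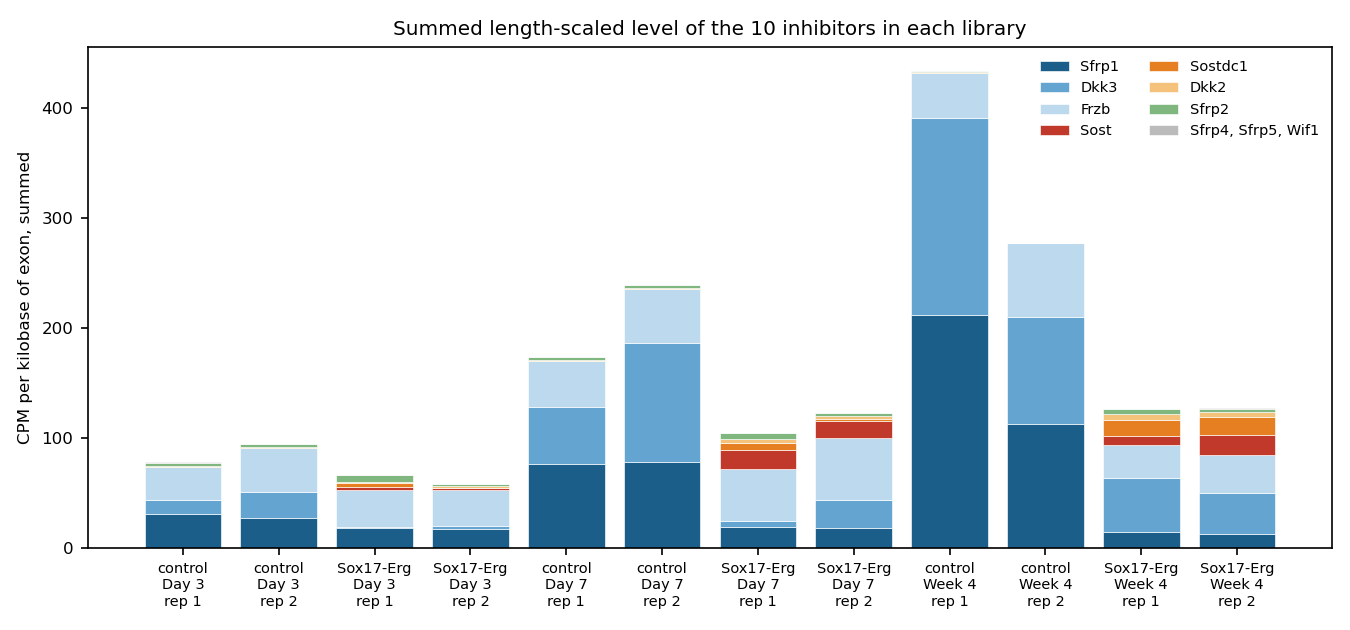
Summed level of the 10 inhibitors in CPM per kilobase of exon (vertical axis, from 0) in each of the 12 libraries (horizontal axis), with each gene's part as a colored segment. The 2 control libraries at Week 4 reach 434 and 277 through Sfrp1 and Dkk3, and the red and orange segments of Sost and Sostdc1 are visible only in SE libraries.

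The genes that followed each member most closely over the 12 libraries were found by Pearson correlation of log2 CPM, as a description. The libraries fall into 6 groups of 2, so a high value chiefly says that the group means had the same shape. Fam213a (r = 0.992), Tmem200c (0.992), Lpar6 (0.991), Gdpd5 (0.989) and Pdgfb (0.987) were closest to Sost. Tmem40, Asap2 and Acp6 (0.984 to 0.987) were closest to Sostdc1, and Kcnj4, Cd83 and Gm16574 (0.966 to 0.969) to Dkk2. Adamtsl5, Cys1 and Rbpms (0.989 to 0.995) were closest to Dkk3, and Serpind1, Emc2 and Prdx6 (0.965 to 0.971) to Sfrp1. Lgr4, an R-spondin receptor of the same pathway, was closest to Sfrp4 (0.949), ahead of Wdr72 and Dnajb4 (0.948 and 0.943). The closest genes to Sfrp2 (Pgpep1, Gm21961 and Bcl9, 0.885 to 0.918) and to Frzb (Tmem60, Sparcl1 and Chrac1, 0.822 to 0.871) were less close. Among the members, Sost correlated with Sostdc1 at 0.933 and with Dkk2 at 0.840, and with Sfrp1 at −0.799. Nothing is read from these values, since the members were chosen by their differences between the arms in these same libraries.

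The rest of the Wnt pathway was examined in 76 further genes, of which 57 passed the filter. Between the arms, 7 of the 57 passed an adjusted p under 0.05 upward and 4 downward on Day 3 (edgeR, adjusted over all genes). Day 7 had 9 upward and 8 downward, and Week 4 had 13 and 9. With the replicate number as a block within each time point, 8 were called downward on Day 3. These shares can be set beside the shares of all genes given above. The median log2 fold change of the 57 was −0.08, 0.08 and 0.07, beside 0.01, 0.01 and −0.01 over all genes tested. Genes of the pathway therefore moved both ways, and the lists are described by role.

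Among the co-receptors that sclerostin acts through, Lrp4, which holds sclerostin at the cell surface, was at 15.5 and 20.9 CPM in control and 6.17 and 8.05 CPM in SE libraries at Day 3, at 71.1 and 182 against 9.67 and 16.5 CPM at Day 7 and at 227 and 99.7 against 11.7 and 14.7 CPM at Week 4. Each SE library lay below each control library of its time point. The log2 fold change of Lrp4 was −3.28 ± 0.53 at Day 7 (adjusted p = 0.0037) and −3.63 ± 0.54 at Week 4 (adjusted p = 0.0016, edgeR), both kept in each of 18 other settings. They were −2.45 without control Day 7 replicate 2 and −2.92 without control Week 4 replicate 1. Lrp5 and Lrp6 are named here for their role, after their values were seen. Lrp5 was lower on Day 3 (−0.83 ± 0.19, adjusted p = 0.0286), on Day 7 (−0.90 ± 0.19, 0.0139) and in Week 4 (−0.62 ± 0.19, 0.0484, edgeR), and Lrp6 was at 0.12 ± 0.12 in Week 4 (adjusted p = 0.510).

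Among the Frizzled receptors, Fzd4, a receptor known for its part in retinal vessel growth, and Fzd3 were higher in SE cultures. Fzd4 was at 18.4 and 23.3 CPM in control and 150 and 117 CPM in SE libraries at Day 3, a log2 fold change of 2.68 ± 0.23 (adjusted p = 0.00048). Fzd3 was at 2.15 and 2.03 CPM in control and 24.5 and 22.4 CPM in SE libraries at Week 4, a log2 fold change of 3.48 ± 0.31 (adjusted p = 0.00010, edgeR). Its Day 3 difference, 1.93 ± 0.29 (adjusted p = 0.0058), was not called without control Day 3 replicate 2 (adjusted p = 0.0576). Fzd1 and Fzd5 are named after their values were seen. Fzd1 was lower at Day 7 (−0.58 ± 0.13, adjusted p = 0.0144) and Week 4 (−0.46 ± 0.13, 0.0280, edgeR). Fzd5 was higher at Day 7 (0.76 ± 0.16, adjusted p = 0.0139) and Week 4 (0.78 ± 0.16, 0.0088, edgeR). Among all 17 receptors and co-receptors tested, Day 3 had 3 calls upward and 2 downward, Day 7 had 4 and 4, and Week 4 had 4 and 5.

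Among the ligands, Wnt5a and Wnt11, both known chiefly for signaling apart from beta-catenin, were higher in SE cultures at every time point. Wnt5a was at 23.4 and 15 CPM in control and 144 and 113 CPM in SE libraries at Day 3 (log2 fold change 2.74 ± 0.37, adjusted p = 0.0034), and Wnt11 at 6.61 and 7.80 against 34.5 and 58.0 CPM at Week 4 (2.68 ± 0.39, adjusted p = 0.0014, edgeR). The Day 3 difference of Wnt11, 2.58 ± 0.41 (adjusted p = 0.0071), was not called without control Day 3 replicate 2 (0.0698) or SE Day 3 replicate 1 (0.0603). Of 19 ligands listed, 8 passed the filter, of which 2, 2 and 3 were higher at the 3 time points and 0 lower. At an unadjusted p under 0.05 in edgeR 0, 1 and 1 were lower, and by DESeq2 0 at each time point. Wnt16 was the third at Week 4 (3.49 ± 1.05, adjusted p = 0.0415), a call that held in 7 of 18 other settings. Its value was 6.82 without control Week 4 replicate 1 and 2.79 without control Week 4 replicate 2, with the call lost in both.

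Among the other secreted antagonists, 6 of 9 listed genes passed the filter. Dkk1, the best known Lrp6 antagonist, was at 0.192 and 0.161 CPM in control and 2.32 and 1.49 CPM in SE libraries at Day 7 (log2 fold change 3.40 ± 0.61, adjusted p = 0.0059). It stood at 2.40 ± 0.56 at Week 4 (adjusted p = 0.0141), a call lost without control Week 4 replicate 1 (adjusted p = 0.0802), without control Week 4 replicate 2 (0.0711) and without SE Week 4 replicate 2 (0.0806). Igfbp4, an insulin-like growth factor binding protein that also inhibits Wnt signaling, was at 209 and 307 CPM in control and 28.7 and 33.3 CPM in SE libraries at Day 7 (−3.06 ± 0.31, adjusted p = 0.00042, edgeR). No other gene of this list was called between the arms by edgeR. At Day 3, where it called 0, an unadjusted p under 0.05 was reached by 1 gene, lower, and DESeq2 also called 1.

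R-spondins are secreted proteins that strengthen Wnt signaling by sparing Frizzled receptors. Of the 7 genes of this module tested, 1, 0 and 2 were higher in SE cultures at the 3 time points and 0, 1 and 2 lower (edgeR). Rspo2 was lower in SE cultures at Day 7 (−2.25 ± 0.55, adjusted p = 0.0232) and at Week 4 (−3.40 ± 0.60, adjusted p = 0.0040), where it held 3.36 and 1.30 CPM in control and 0.177 and 0.259 CPM in SE libraries. Rspo1 was lower at Week 4 (−2.02 ± 0.50, adjusted p = 0.0190), and Rspo3 higher at Day 3 (3.75 ± 0.84, adjusted p = 0.0232, edgeR). Of the 4 calls of these Rspo genes only that of Rspo2 at Week 4 held in each of 18 other settings, with a value of −2.55 without control Week 4 replicate 1. With each time point fitted alone, the calls of Rspo3 at Day 3 (adjusted p = 0.0539) and Rspo2 at Day 7 (0.0503, edgeR) were lost. The higher genes in Week 4, named after their values were seen, were Lgr4, an R-spondin receptor (0.95 ± 0.22, adjusted p = 0.0146), and Znrf3, a ligase that removes Frizzled receptors (0.71 ± 0.22, adjusted p = 0.0415, edgeR). The Rspo3 call rests on values of 3.69 and 0.861 CPM in SE against 0.146 and 0.185 CPM in control libraries, and without SE Day 3 replicate 1 it was 2.32 (adjusted p = 0.205), and 4.45 without SE Day 3 replicate 2. It was also lost without either control library of Day 3 (0.137 and 0.135). The Day 7 call of Rspo2 was lost without control replicate 2 (0.128), SE replicate 1 (0.129) or SE replicate 2 (0.0811) of that day, and the call of Rspo1 without control replicate 1 (0.129), SE replicate 1 (0.0638) or SE replicate 2 (0.112) of Week 4.

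Inside the cell, Ctnnb1, which encodes beta-catenin, was at 540 and 572 CPM in control and 1094 and 953 CPM in SE libraries at Week 4 (0.88 ± 0.15, adjusted p = 0.0029). Gsk3b, a kinase that marks beta-catenin for breakdown, was higher by 0.55 ± 0.10 at that time (adjusted p = 0.0040, edgeR). Its difference at Day 7, 0.35 ± 0.10 (adjusted p = 0.0361), was called in 4 of 18 other settings. Of the 9 genes of this list, 0 were lower at any time point in edgeR, also at an unadjusted p under 0.05, and 0 by DESeq2.

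Of 10 TCF factors and feedback targets tested, 1 was higher at each time point and 2, 2 and 1 were lower. Apcdd1, a membrane inhibitor induced by Wnt signaling, was lower at Day 3 (−1.77 ± 0.17, adjusted p = 0.00072), at Day 7 (−0.99 ± 0.17, adjusted p = 0.0047) and at Week 4 (−0.89 ± 0.17, adjusted p = 0.0057). Nkd1, a feedback inhibitor, was lower at Day 3 (−1.88 ± 0.45, adjusted p = 0.0304) and Day 7 (−1.64 ± 0.43, adjusted p = 0.0296), while its relative Nkd2 was higher at Day 7 (1.75 ± 0.38, adjusted p = 0.0144). Tcf7, a TCF factor, was higher at Week 4 (2.39 ± 0.69, adjusted p = 0.0353, edgeR), a call that held in 10 of 18 other settings and was 1.68 (adjusted p = 0.225) without SE Week 4 replicate 1. The Day 3 call of Nkd1 was lost without any 1 of the 4 libraries compared (0.0897 to 0.204), its Day 7 call without control Day 3 replicate 2 (0.0505), control Day 7 replicate 1 (0.0719) or 2 (0.0968) or SE Day 7 replicate 1 (−1.04, 0.0907; −2.67 without SE Day 7 replicate 2), the Nkd2 call without replicate 2 of either arm at Day 7 (0.0945 and 0.0653), and the Week 4 call of Apcdd1 without SE Week 4 replicate 1 (0.0552). With each time point fitted alone, the Day 7 call of Nkd1 was lost as well (adjusted p = 0.123, edgeR). Axin2, the feedback gene most used as a readout of beta-catenin signaling and named for that role after its values were seen, was at 0.64 ± 0.45, 0.39 ± 0.44 and 0.46 ± 0.43 (adjusted p = 0.382, 0.573 and 0.487).

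The difference of the SE effect between Week 4 and Day 3 was called for 1 of the 57 genes, Myc, beside 3.21% of all genes in either direction (edgeR), and for 8 of the 57 by DESeq2. Of the 29 named calls between the arms, 16 held in each of 18 other settings.

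**Figure D4:**
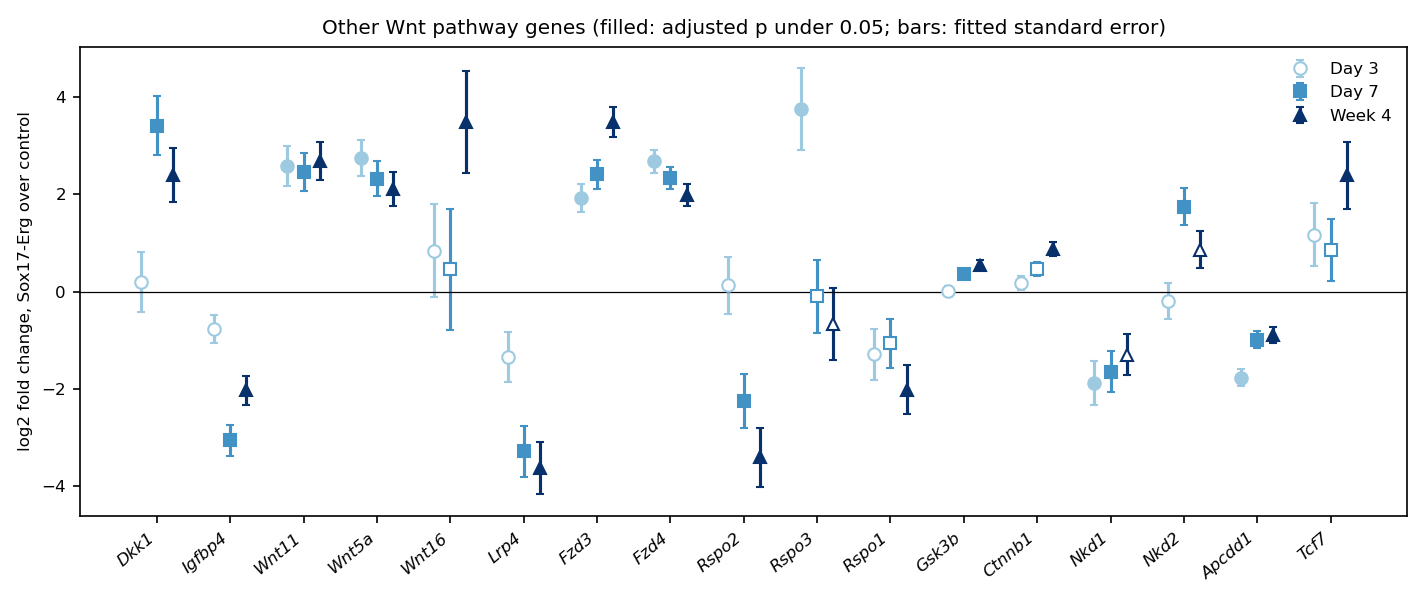
Log2 fold change of SE over control (vertical axis) for the 17 other Wnt pathway genes named by rule (horizontal axis) at the 3 time points, with fitted standard errors as bars and filled symbols for an adjusted p under 0.05. Wnt5a, Wnt11, Fzd3 and Fzd4 lie above 0 at each time point, and Lrp4 reaches −3.63 and Rspo2 −3.40 at Week 4.

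Markers of other cell types moved with the arms as well. The 8 osteoblast and osteocyte markers, chosen because Sost is an osteocyte gene, summed to 14.9 to 25.1 CPM in control and 24.3 to 66.2 CPM in SE libraries, with Mepe and Ibsp at 0 counts in every group. Of the 4 that passed the filter, 1, 2 and 2 were higher in SE cultures at the 3 time points and 0, 1 and 1 lower (edgeR). Named after their values were seen, Dmp1, an osteocyte matrix gene, was at 0.278 ± 0.181 CPM in control and 15.6 ± 6.61 CPM in SE libraries at Week 4 (SD, n = 2). Runx2, an osteoblast transcription factor, was at 13.5 ± 0.30 against 32.2 ± 4.42 CPM, and Alpl, an alkaline phosphatase, at 7.43 ± 4.38 against 2.01 ± 1.21 CPM. The 5 smooth muscle and mural markers summed to 908 to 2400 CPM in control and 3849 to 4046 CPM in SE libraries at Week 4, most of it Acta2 and Tagln, and 1, 4 and 3 of 5 were higher at the 3 time points and 0 lower (edgeR). The 5 mesothelial and epicardial markers summed to 868 to 1364 CPM in control and 158 to 247 CPM in SE libraries at that time, with 5 of 5 lower, and the 5 cardiomyocyte markers to 1064 to 1337 and 681 to 684 CPM, with 3 of 5 lower. The 5 macrophage and leukocyte markers summed to 101 to 120 CPM in control and 36.2 to 47.4 CPM in SE libraries at Day 7 and to 9.64 to 49.2 and 9.94 to 48.6 CPM at Week 4, and 0 of 5 were called at any time point (edgeR). The part of these cell types in the levels of the inhibitors was not tested.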

How the data were processed

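The authors quantified paired-end bulk RNA-seq with Salmon and deposited a table of estimated counts per Ensembl gene. The submitters' processing notes name bcl2fastq 2.20.0, Salmon (its version is not given in the sources used here), DESeq2 and mm10. The methods add trimming with BBDuk, and the annotation is not given in the sources used here. The libraries were grouped by title. Gene positions and exon lengths came from GENCODE M21 (GRCm38), which matched 35422 of 35727 genes, and promoters from RefSeq (GRCm38.p6). The members and gene lists were chosen with earlier results of these data known.

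Counts were rounded and fitted in R 4.3.3 with edgeR 4.0.16 (TMM; filterByExpr at its defaults, 10 for the count in a library and 15 for the total; glmQLFit on all 12 libraries, each group having its own mean, which leaves 6 residual degrees of freedom; two-sided glmQLFTest). The fit held 15506 genes, and p-values were Benjamini-Hochberg adjusted over all of them. CPM are counts scaled to TMM-adjusted library sizes, and log2 fold changes are SE minus control or Week 4 minus Day 3. Standard errors are the absolute log2 fold change divided by the square root of F. Steps were tested on simulated data. A floor of 3 counts stands for a count of 0 and covers counting error only. Alternatives were DESeq2 1.42.0, DESeq2 size factors, no filter, replicate blocks, each time point alone and each library left out; settings for single pathway genes and for the change of the SE effect were chosen after seeing the data, and an arm left with 1 library is assumed to vary like the others. Named pathway genes were, in each list and comparison, the 2 called genes with the largest absolute log2 fold change. The 5 genes most like Sost and the 3 most like each other member were named by Pearson correlation of log2 CPM (prior count 2).

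Same-numbered control and SE libraries deviated together from their group means (r over genes 0.19 at Day 3, 0.30 at Day 7 and 0.17 at Week 4). The numbers, taken from the titles, were therefore used as a block within each time point among the other settings. The main fit had no block, so its values between the arms are not paired. Between Day 3 and Week 4 same-numbered libraries did not deviate together (−0.10 in control, −0.05 in SE). The 2 libraries of each group differed by more than sampling noise.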

Additional observations from a re-analysis of the deposited data

Results flagged for a closer look

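Myc, a growth gene and a known Wnt target, was the 1 of the 57 other pathway genes tested in edgeR for which the difference between SE and control changed from Day 3 to Week 4; DESeq2 called 8. It held 23.2 and 19.2 CPM in control and 66.7 and 50.5 CPM in SE libraries at Day 3, against 32.1 and 26.4 and 36.0 and 23.8 CPM at Week 4. The change of the difference was −1.43 ± 0.30 on the log2 scale (adjusted p = 0.0374, edgeR interaction test), and the call held in 5 of 16 other settings, with adjusted p up to 0.164.

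The values of Sfrp1 over time had opposite signs in the 2 arms. From Day 3 to Week 4 the log2 fold change was 2.49 in control, where both Week 4 libraries were above both Day 3 libraries, and −0.38 in SE cultures, where both were below but the difference did not pass the threshold (adjusted p = 0.260, edgeR). The difference between the 2 was not tested, since the member was chosen by its SE and control values.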

How the results depend on the processing

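Of 378 member differences between the arms recomputed under other settings, 363 moved by less than their fitted standard error and 15 by more. Of 240 member differences over time, 206 kept their direction and their side of the threshold, 13 gained and 10 lost the threshold, and 11 changed sign. The causes were not tested. The number of members higher in SE at Day 3 was 1 with each time point fitted alone. The number lower at Day 3 was 2 with DESeq2, with no filter, with the replicate block within each time point and with each time point alone, and at Day 7 it was 1 with each time point alone. The number lower in control from Day 3 to Week 4 was 1 with DESeq2, 2 with no filter and 1 with the replicate block over all libraries. Other pathway genes lower at Day 3 numbered 7 with DESeq2, 8 with no filter and 8 with the replicate block within each time point. Genes whose difference between the arms changed over time, 1 in edgeR, numbered 8 with DESeq2, 7 with no filter and 2 with the replicate block over all libraries. Under the block over all libraries Sfrp2 in SE cultures over time was 0.051 in place of −0.15. Beyond the calls given with the members, the block within each time point changed no member's call between the arms.

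With 1 library left out, members higher in SE numbered 1 to 2 at Day 3 and 1 to 3 at Day 7, and members lower 0 to 2, 1 to 2 and 1 to 2 at the 3 time points. Over time, members that rose numbered 1 to 2 in control and 2 to 4 in SE cultures, and those that fell 0 to 2 and 0 to 1. Other pathway genes higher numbered 2 to 7 at Day 3 and 7 to 12 at Week 4, and those lower 1 to 6, 4 to 8 and 4 to 10 at the 3 time points, and those whose difference changed over time 0 to 1. The log2 fold change from Day 3 to Week 4 ranged from −0.26 to 4.77 for Sostdc1 and from −0.19 to 0.48 for Sfrp4 in control, and from −0.82 to 1.19 for Sfrp2 and from −0.17 to 0.10 for Frzb in SE cultures. Depth limits Sfrp5 and Wif1, at or near the floor in most libraries, and 2 libraries a group limit every call.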

Other observations

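The genes next to the members on the chromosome were looked at after the members' values were seen. Of 20 neighbors, 1 on each side of each member, 14 passed the filter on low counts. At Day 3, 0 were higher and 1 was lower in SE than in control at an adjusted p under 0.05 (edgeR). At Day 7, 2 were higher and 3 lower, and at Week 4, 2 were higher and 2 lower. Next to Sost, Dusp3, which encodes a phosphatase, differed by 0.15 ± 0.10, 0.32 ± 0.10 and 0.09 ± 0.10 on the log2 scale at the 3 time points (adjusted p = 0.334, 0.0508 and 0.540), and Meox1, a homeobox gene, by 1.72 ± 1.04, 0.95 ± 0.99 and 1.65 ± 1.01 (adjusted p = 0.299, 0.553 and 0.282).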
